A study of Mus musculus with 2 samples.

Results

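The 10 genes described here, Wnt10a, Wnt10b, Sostdc1, Tcf7, Lef1, Ctnnb1, Axin2, Lrp5, Lrp6 and Tle4, encode Wnt ligands, a secreted antagonist, Wnt co-receptors, β-catenin and its regulators, and nuclear factors of the pathway. They were taken by name among the 30069 gene names on the array, with every probe that carried one of these names, which gave 16 probes. Wnt10a and Sostdc1 were selected on their measured differences between these same arrays, which were large and opposite, so those differences are a description and support nothing beyond themselves. Sorted mouse regulatory T (Treg) cells, the CD4 T cells that restrain immune responses, were profiled from 1 library labelled Nr4a-deficient (its mice are called Nr4a-TKO, the name used below) and 1 wild-type library, both from mice 5 weeks old. Nr4a1, Nr4a2 and Nr4a3 are nuclear receptors whose genes T cell receptor signals switch on, and the comparison addresses which Treg transcripts depend on them. The allele behind the deficiency, any Cre driver, the strain, the tissue, the markers of the sort and the number of animals are not given in the sources used here. There was 1 single-colour Agilent array for each library, so no difference could be tested, no p-value is given, and every value describes these 2 libraries only.

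Secreted Wnt proteins bind a Frizzled receptor together with the co-receptor Lrp5 or Lrp6, which stops a destruction complex built on Axin from marking β-catenin for degradation. β-catenin, the product of Ctnnb1, then enters the nucleus and joins the DNA-binding factors TCF-1 (Tcf7) and LEF-1 (Lef1), which otherwise hold corepressors of the TLE family on their target genes. In T cells, TCF-1 and LEF-1 are needed for thymic development and for naive and follicular helper states, and in Treg cells they shape the follicular regulatory subset.

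The probes are shown first because the largest differences rest on 3 of them and because Wnt10a and Wnt10b are close paralogs. Each probe was a 60-base oligonucleotide, and 30 of its bases are printed, 5′ to 3′, as deposited with the array. For the paralog pair, bases 6 to 35 are given, with the longest run of letters that both probes share in capitals. That run was 9 bases long. The Wnt10a probe lies at chr1:74850633-74850692 on the plus strand and the Wnt10b probe at chr15:98602209-98602268 on the minus strand, in the coordinates of build mm9 that the array design gives.
Wnt10a: cttaacagatATTTATTTTtgcgctctctt
Wnt10b: ggaatggataATTTATTTTactgagatgtg

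For the members with 2 probes that differ most, bases 1 to 30 are given. The Sostdc1 probes lie at chr12:37044197-37044256 and chr12:37044532-37044591 on the plus strand, the Tcf7 probes at chr11:52066114-52066173 and chr11:52066738-52066797 on the minus strand, and the Axin2 probes at chr11:108812034-108812093 and chr11:108803927-108803986 on the plus strand. An annotation of mm9 was not used here, and the exon or untranslated region that a probe covers is not given.
Sostdc1 probe 1: tctcaagatgtaatgagtagtttgcagtga
Sostdc1 probe 2: tttttccagtctcagtgtgaaattatcccc
Tcf7 probe 1: ttttttcattctcgctgtagatagcctgaa
Tcf7 probe 2: ccaatacttcttggaccaagaatacctggt
Axin2 probe 1: cttggtacaataattattgtaattaagaga
Axin2 probe 2: tcctgggggaacagattattattgctactc

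The probes of related members shared little sequence. The longest shared run was 8 bases between Tcf7 and Lef1 probes and 6 bases between Lrp5 and Lrp6 probes.

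Signals are the background-subtracted intensities of the scanner software, each with that software's own error for the spot, since each member probe was printed in 1 spot. Differences are log2 values, library labelled Nr4a-TKO minus wild-type, after each array was divided by its 75th percentile (1762 and 2047, respectively). A probe had to be called well above background by the software. The lowest signal with that call was 51.1 in the library labelled Nr4a-TKO and 73.8 in the wild-type library. Where only 1 array passed, the difference is a bound against that lowest signal, or against the dim probe itself if higher, and is written "at least". The error beside a difference is the SD of differences between spots of 1 probe, and it covers spot noise only. It comes from the 40 repeated probes closest in level, taken as the mean log2 signal of both arrays. The quantity is RNA of a sorted population, in which fewer cells of a type and less RNA per cell cannot be told apart. Both arrays came from 1 slide and 1 scan. Of 39348 gene probes, 58.7% and 55.6% were above background, respectively.

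The labels could not be checked on the targeted genes. Nr4a1 gave a signal of 80407 in the library labelled Nr4a-TKO and 51441 in the wild-type library, higher by 0.86 after scaling, and both Nr4a2 probes were higher too (0.98 and 0.68). The Nr4a3 probe (22.3 and 71.6) did not reach the background limit in either library, so its measured difference of -1.47, which goes with the label, is not read. The directions of Nr4a1 and Nr4a2 go against the label, and whether the probes lie in the deleted part is not given. The name "library labelled Nr4a-TKO" is therefore kept, and each direction below rests on that label. All 8 Treg markers were detected, with Foxp3 near the background limit (74.5 and 85.4). Of these markers, Il2ra, a subunit of the interleukin-2 receptor, was 2.42-fold lower in the library labelled Nr4a-TKO and the other 7 stayed within 2-fold. Among the 8, 5 were below 0, including Tnfrsf18 (-0.86) and Tnfrsf4 (-0.55), and 3 were above it, with a median of -0.15. Their summed signal, each over the array's 75th percentile, was 90.4 in the library labelled Nr4a-TKO and 131.7 in the wild-type library.

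Of the 10 members, 9 were above background on at least 1 array, and 7 of these on both. Sostdc1 was at least 2-fold higher and Wnt10a at least 2-fold lower, both of them picked for it, while the other 7 stayed within 2-fold. Among all 18540 genes detected on at least 1 array, 4.7% passed 2-fold upwards and 4.94% downwards. Since the choice of members fixed both calls, nothing is read from their share. The median difference over the 9 detected members was 0.08, against 0 over all detected genes.

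**Figure D1:**
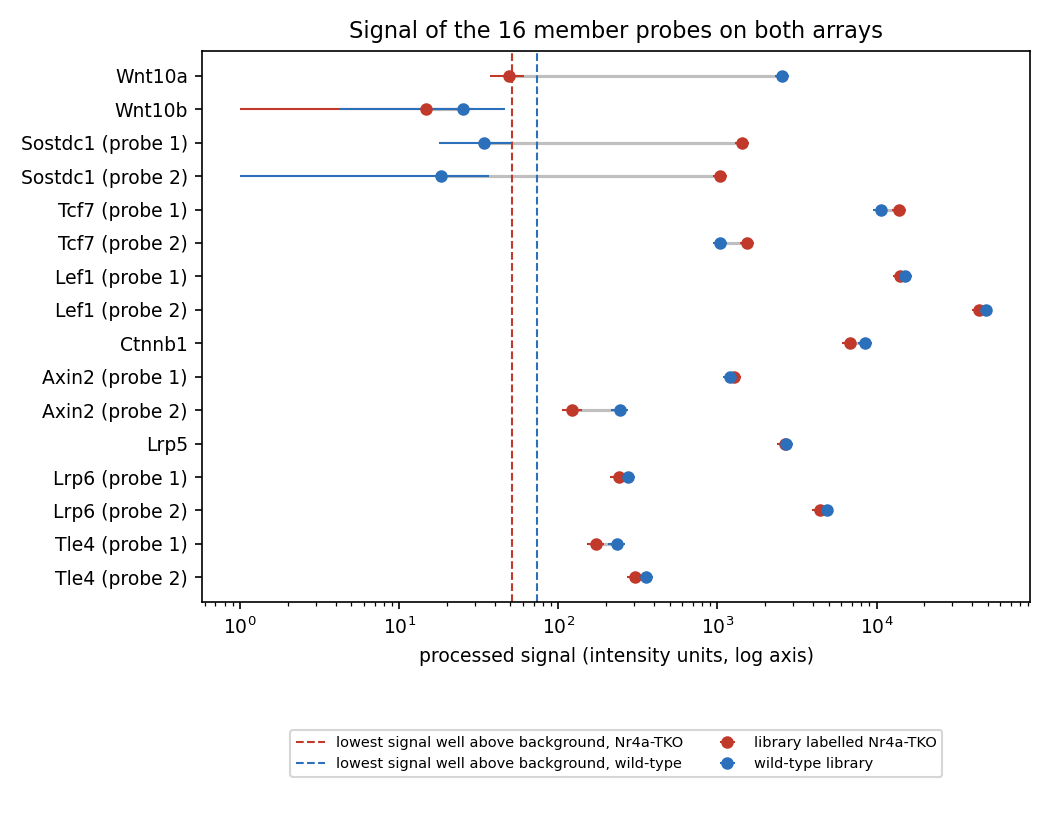
Signal of each of the 16 member probes (rows) in the library labelled Nr4a-TKO (red) and the wild-type library (blue), in intensity units on a log axis. Bars are the scanner software's error, drawn no lower than 1, and dashed lines mark the lowest signal well above background on each array. Wnt10a (49.1 and 2558) and both Sostdc1 probes (1426 and 1045 against 34.1 and 18.3) cross these lines in opposite directions, and both Wnt10b points lie below them.

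Wnt10a encodes a secreted ligand that acts through β-catenin. Its signal was 49.1 ± 11.7 in the library labelled Nr4a-TKO and 2558 ± 256 in the wild-type library. It was thus well above background in the wild-type library only, and the difference was a bound of -5.43, at least 43.1-fold. The spot SD was 0.17, but it was read at the mean level of both arrays, where neither Wnt10a signal lies. It thus does not give the noise of the dim signal. The dim signal was not at the floor of its array, since it exceeded 151 of the 153 negative-control spots there, whose median was 12.9. Among the 407 named genes detected in the wild-type library alone, the Wnt10a bound came first, and it was 4th in the order of all detected genes that were lower. Most bounds are set against the same lowest signal, so their order largely follows the wild-type signal, and Wnt10a was picked for this value. Next in the order of bounds were Cd209f, a C-type lectin gene (at least 40.8-fold lower), and Ifi202b, an interferon-induced gene (at least 30.5-fold lower).

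Wnt10b encodes the ligand closest to Wnt10a in sequence. Its signal was 14.7 ± 14.7 in the library labelled Nr4a-TKO and 25.1 ± 20.9 in the wild-type library. Neither value was well above background, so no fold is given. On the wild-type array, 140 of 153 negative-control spots were dimmer than Wnt10b, and on the other array 128 were. A difference in Wnt10b was therefore not measurable with this probe. The paralog probes thus gave different pictures: the Wnt10a probe had a clear signal in the wild-type library, and the Wnt10b probe had one in neither.

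The genes beside both ligands were read in the order of the RefSeq table, a look added after the data were seen. Wnt6, which lies next to Wnt10a, was not well above background (18.6 and 51.7), and nor was Cdk5r2 on the other side (14.0 and 19.7). Wnt1, next to Wnt10b, was above background on both arrays by its brighter probe (1534 and 1630) with a difference of 0.13. Its other probe (13.3 and 19.1) was above background on neither. Neither neighbour of Wnt10a was thus detected in the wild-type library, where Wnt10a was.

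Sostdc1 encodes a secreted protein that binds bone morphogenetic proteins (BMPs) and also antagonises Wnt signals through the co-receptors Lrp5 and Lrp6. Probe 1 gave 1426 ± 143 in the library labelled Nr4a-TKO and 34.1 ± 16.4 in the wild-type library. Probe 2 gave 1045 ± 105 and 18.3 ± 18.3, respectively. Both probes were thus well above background in the library labelled Nr4a-TKO only, the opposite pattern to Wnt10a. The bound was 4.49 for probe 1, at least 22.4-fold higher in the library labelled Nr4a-TKO, and 4.04 for probe 2, at least 16.4-fold higher. On the wild-type array, 144 of 153 negative-control spots were dimmer than probe 1 and 84 were dimmer than probe 2, so only the bounds are given.

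In the order of the 831 named genes detected only in the one labelled Nr4a-TKO, predicted and clone names left out, Sostdc1 was the 7th. The kallikrein genes Klk1 (at least 27.8-fold higher) and Klk1b4 (25.9-fold) stood directly before it. Il21, a cytokine of follicular helper T cells, and the chemokine gene Ccl8 stood directly after it (at least 20.5-fold and 17.5-fold). With 2 libraries, nearness in this order says only that these genes had bounds of like size.

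The co-receptors that Sostdc1 can bind were detected in both libraries, with differences well within 2-fold. Lrp5 gave 2651 ± 265 in the library labelled Nr4a-TKO and 2714 ± 272 in the wild-type library, a difference of 0.18 with a spot SD of 0.073. For Lrp6, the brighter probe gave 4386 ± 439 and 4868 ± 487 and the dimmer one 239 ± 26.6 and 272 ± 31.8, in the same order. Its differences were 0.07 and 0.03, each smaller than the spot SD at its level (0.073 and 0.22). Both co-receptors turned negative when the arrays were scaled on spike-in RNA in place of the 75th percentile, Lrp5 to -0.18 and Lrp6 to -0.30, and Lrp6 also on the median scale (-0.03).

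That scale matters for every small difference. The 8 spike-in RNAs that both arrays detected were higher by 0.36 ± 0.057 (SD, n = 8) in the library labelled Nr4a-TKO after percentile scaling. Dividing by them moved the median of all detected genes to -0.36. Of the genes past 2-fold, 27.4% were then higher, against 48.8% on the percentile scale. The source of this shift was not tested.

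Ctnnb1 encodes β-catenin, which carries the signal from the membrane to the nucleus. Its signal was 6772 ± 677 in the library labelled Nr4a-TKO and 8523 ± 853 in the wild-type library, a difference of -0.12 with a spot SD of 0.072. It was below 0 under all 6 scalings, between -0.48 and -0.04, and the other settings leave this single bright probe nearly unmoved.

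Axin2, a scaffold of the destruction complex that Wnt signals themselves induce and that is widely read as a pathway target, gave probes that disagreed. Probe 1 gave 1276 ± 128 in the library labelled Nr4a-TKO and 1207 ± 122 in the wild-type library, a difference of 0.30 with a spot SD of 0.10. Probe 2 gave 123 ± 17.4 and 244 ± 29.7, respectively, a difference of -0.77 with a spot SD of 0.29. Each was larger than its spot SD, and they pointed in opposite directions. Probe 1 starts at position 4196 of the transcript named by the array design, with 20% G and C, and probe 2 at position 1971, with 48.3% G and C. The mean of both was -0.24, and probe 1 itself turned to -0.07 on the spike-in scale, so no direction is given for Axin2. It was the single member of the 6 with 2 probes whose probes differed in sign.

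Next to Axin2 on chromosome 11 lies Rgs9, a regulator of G-protein signals, whose signal of 71.0 in the library labelled Nr4a-TKO and 3999 in the wild-type library was 48.5-fold lower. On the other side, Cep112 differed by -0.90 (89.0 and 193).

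Tcf7, which encodes TCF-1, had the largest difference of the members above background on both arrays when these were scaled to the 75th percentile. On the spike-in scale it was 0.24, smaller in size than the -0.48 of Ctnnb1 and the -0.38 of Tle4. Probe 1 gave 13846 ± 1385 in the library labelled Nr4a-TKO and 10609 ± 1061 in the wild-type library. Probe 2 gave 1543 ± 155 and 1041 ± 106, respectively. Both probes were thus brighter in the library labelled Nr4a-TKO even before scaling. The differences were 0.60 (1.52-fold) and 0.78 (1.72-fold), which were 8.63 and 7.87 times the spot SD at those levels. Tcf7 was above 0 under all 6 scalings, from 0.24 to 0.64, and at 0.69 for the mean of both probes, while the settings on dim probes and on the fold limit cannot move it. At 1.52-fold it stayed within the 2-fold limit, and spots leave out the spread between animals, which these arrays do not measure. Its neighbours Skp1 and Vdac1 differed by -0.22 and -0.24.

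Lef1, which encodes the related factor LEF-1, did not share that difference. Probe 1 gave 14023 ± 1402 in the library labelled Nr4a-TKO and 15110 ± 1511 in the wild-type library, and probe 2 gave 44110 ± 4411 and 48453 ± 4845. The differences were 0.11 and 0.08, or 1.44 and 1.07 times the spot SD. The sign of Lef1 depended on the scale: it was above 0 under 4 of 6 scalings, -0.28 on the spike-in scale and -0.02 on the median scale. Probe 1 of Lef1 maps across 18162 bases (chr3:130907851-130926012), which a 60-base probe does when it spans a splice junction. The difference of either Tcf7 probe exceeded that of either Lef1 probe.

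Tle4 encodes a TLE corepressor that TCF-1 and LEF-1 can recruit. Its probes gave 173 ± 20.3 and 304 ± 33.3 in the library labelled Nr4a-TKO, against 233 ± 27.8 and 356 ± 40.4 in the wild-type library. The differences were -0.22 and -0.01, both smaller than the spot SD at their levels (0.26 and 0.19). Over the 6 scalings the brighter Tle4 probe lay between -0.38 and -0.01.

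**Figure D2:**
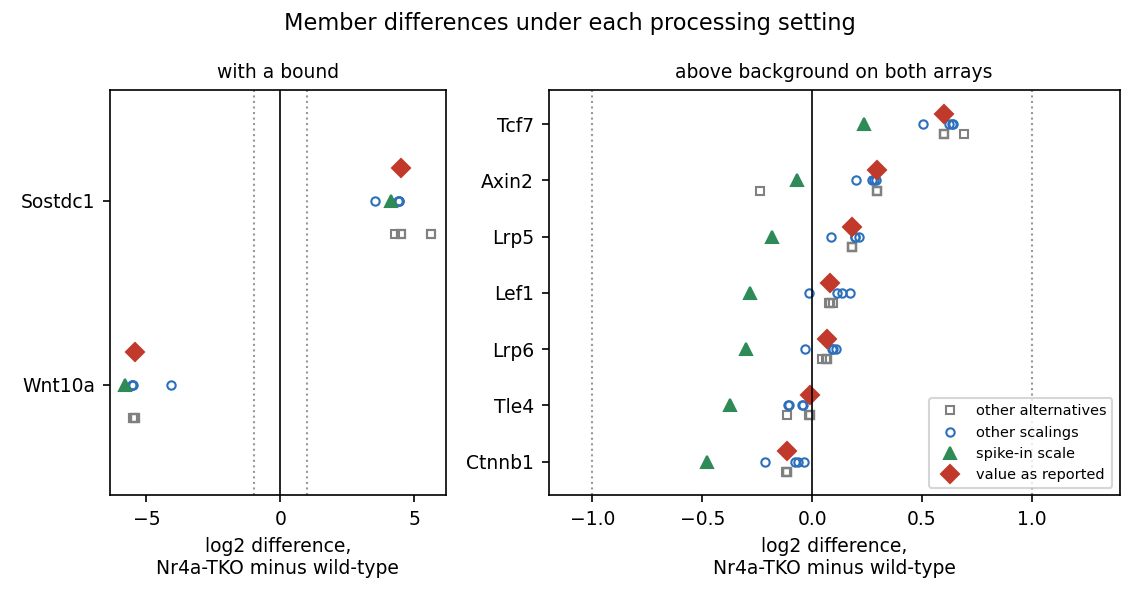
The log2 difference of each detected member, library labelled Nr4a-TKO minus wild-type, under the setting reported (red diamonds), the spike-in scale (green triangles), other scalings (blue circles) and other alternatives (grey squares). Dotted lines mark 2-fold. Sostdc1 and Wnt10a stay beyond these lines throughout, Tcf7 stays above 0, Ctnnb1 and Tle4 stay below it, and Axin2, Lrp5, Lef1 and Lrp6 lie on both sides.

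**Figure D3:**
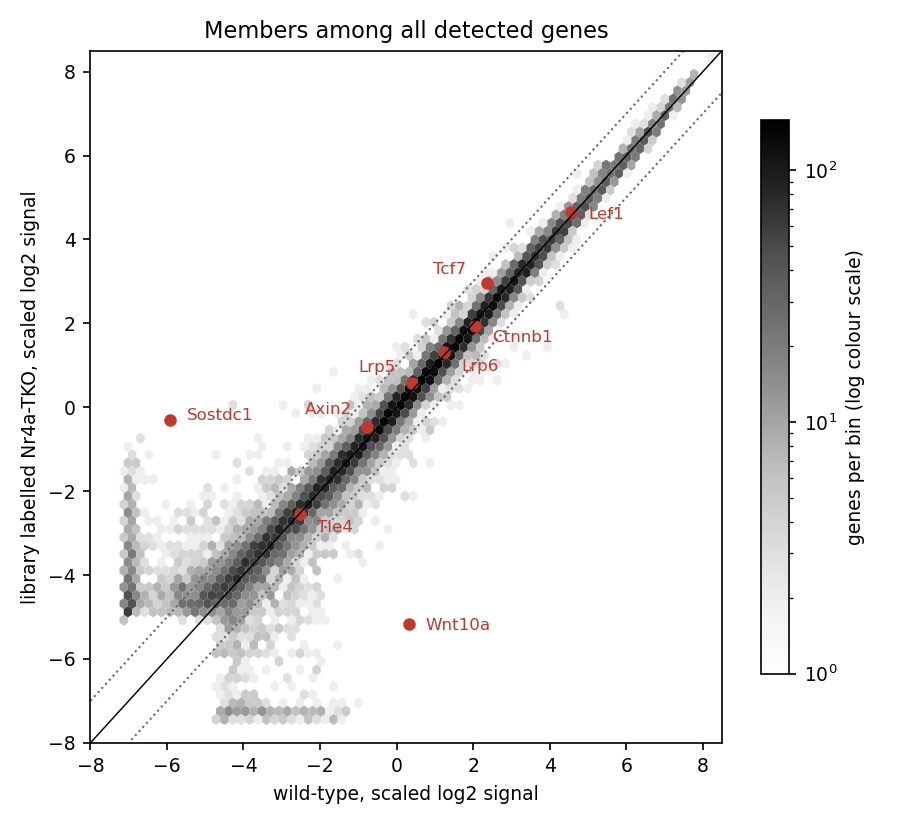
Scaled log2 signal of all 18540 detected genes in the wild-type library (horizontal) and the library labelled Nr4a-TKO (vertical), as the number of genes per bin on a log colour scale, with dotted lines at 2-fold and the 9 detected members in red. Wnt10a and Sostdc1 are drawn at their measured values (-5.49 and 5.60) and lie far off the diagonal, and the other 7 members lie within the dotted lines.

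The start regions of the members were searched because the Nr4a receptors bind the element AAAGGTCA (the NBRE) and TCF-1 and LEF-1 bind CTTTG cores. The RefSeq promoter table of GRCm38.p6 held 12 windows of 300 bases for 6 members (Lef1, Ctnnb1, Tcf7, Axin2, Wnt10b and Tle4), from 250 bases before to 50 after a start site. AAAGGTCA, on either strand, was in 1 of the 12 windows, against 1.51% of all 32851 windows. That window belonged to Tcf7. The 250 bases before its start site, chr11:52282596-52282845 on the minus strand, are printed with the match, read here as TGACCTTT at positions -13 to -6, in capitals.
Tcf7 promoter: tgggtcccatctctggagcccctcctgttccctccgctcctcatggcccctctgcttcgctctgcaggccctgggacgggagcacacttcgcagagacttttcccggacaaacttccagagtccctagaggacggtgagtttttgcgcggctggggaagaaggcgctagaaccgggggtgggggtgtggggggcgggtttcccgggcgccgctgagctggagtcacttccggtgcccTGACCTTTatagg

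The TCF/LEF words searched were CTTTGAA with CTTTGAT as well as CTTTGTA with CTTTGTT. On either strand and with no overlap with the NBRE letters, they were in 1 of the 12 windows, against 16.9% of all windows. That window belonged to Lef1, with the match in capitals below, at chr3:131156135-131156164 on the plus strand. A match is a string of letters, not a bound site, and no binding was measured here.
Lef1 promoter: acaacctcagaaTACAAAGtaggattgcat

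The other genes of the pathway were read from lists written with earlier results of these arrays known. Of 100 genes, 58 were detected, of which 1 passed 2-fold upwards and 6 passed it downwards. Their median was 0.05. In percent, 1.72 were higher and 10.3 lower, beside the 4.7% and 4.94% of all detected genes, and the count of lower genes moved between 2 and 13 with the settings.

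Among the 17 other ligands, 7 were detected, 0 were higher and 3 were lower. Wnt3 (46.2 in the library labelled Nr4a-TKO and 263 in the wild-type library) was at least 4.43-fold lower, Wnt7a (12.9 and 136) at least 2.29-fold lower and Wnt11 (97.1 and 228) 2.02-fold lower. Wls, the carrier that brings Wnt proteins to the cell surface, was 2.03-fold lower (972 and 2295) with a spot SD of 0.093. Of these, Wnt3 and Wnt7a were detected in the wild-type library alone, so the filter fixed their direction, while Wnt11 and Wls were detected in both and lay at the 2-fold limit. The spot SD was 0.38 for Wnt3, 0.67 for Wnt7a and 0.32 for Wnt11. Porcn, listed with Wls for Wnt secretion, was at least 1.85-fold higher (118 and 53.4). It was detected in the library labelled Nr4a-TKO alone, so the filter fixed its direction too. The ligands Wnt1, Wnt5a, Wnt5b and Wnt16, detected in both libraries, had differences of 0.13, 0.22, 0.88 and 0.24. For Wnt1 and Wnt16 this rests on the brighter probe, since the other probe of each was above background on neither array.

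Of 22 receptors and R-spondins, 7 were detected. Of these, Lgr5, a receptor for R-spondins, was at least 2.60-fold lower by its brighter probe (11.7 and 155), while its second probe was well above background in the library labelled Nr4a-TKO alone (65.2 and 17.2). The 14 other antagonists and antagonist partners offered little beside Sostdc1: 12 of them, including every Dkk and Sfrp gene listed, were not above background on either array. The antagonist partners Kremen1 and Kremen2 were detected, with differences of 0.21 and -0.55.

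All 16 genes listed for the destruction complex and its regulators were above background on both arrays. All stayed within 2-fold, with a median of 0.07, near the values of Lrp5, Lrp6 and Ctnnb1. Of 18 nuclear cofactors, 17 were detected and 1 was lower. This was Tcf7l1, which encodes another TCF factor (60.0 and 281, at least 4.04-fold lower). Tcf7l1 was detected in the wild-type library alone, so the filter fixed its direction, and nothing is read from it beside Tcf7. Tle2 and Tle3, relatives of Tle4, had differences of -0.67 and 0.27. Probes of a further relative, Tle1, disagreed. The brightest gave 0.25 (1247 and 1216), and the dimmer ones gave -1.34 (161 and 475), -2.23 (117 and 641) and -0.03 (62.7 and 74.5).

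Of 16 genes listed as Wnt targets, 11 were detected. Ccnd1, the gene of cyclin D1, was 5.61-fold higher (1928 and 399), and it was the 1 pathway gene past 2-fold upwards. Myc had a difference of -0.55, and the feedback genes Nkd2, Notum, Znrf3 and Rnf43 had 0.32, 0.13, 0.20 and 0.38. The dimmer Nkd2 probe (11.3 and 14.6) was above background on neither array. The listed targets thus pointed both ways, as the Axin2 probes did.

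All 16 T cell genes tied to TCF-1 in background knowledge were detected. Cxcr5, the chemokine receptor of follicular T cells, was 2.41-fold higher (7161 and 3450), and the other 15 stayed within 2-fold. On the spike-in scale Cxcr5 was at 0.90, within 2-fold. Satb1 (0.79) and the brighter Slamf6 probe (0.74) had differences like that of Tcf7, while the other Slamf6 probe (7331 and 6853) gave 0.31. Bach2 (-0.46 by its brighter probe and -0.05 by the dimmer one), Il6st (-0.42) and Il7r (-0.38) lay on the other side of 0. The list's median was 0.10.

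Of 19 BMP pathway genes, listed because Sostdc1 also binds BMPs, 14 were detected. Id2, a gene that BMP signals induce in many cells, was 2.08-fold higher (14949 and 8357). No other gene of the list passed 2-fold. Of the 14, 7 were above 0 and 7 below it, with a median of 0.09. Among those above background on both arrays, Acvr2a (0.76), Acvr2b (0.71) and Nog (0.67) were on the higher side. Bmp7 (-0.54) and Smad7 (-0.49) were on the lower side. On the spike-in scale Id2 was at 0.69.

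**Figure D4:**
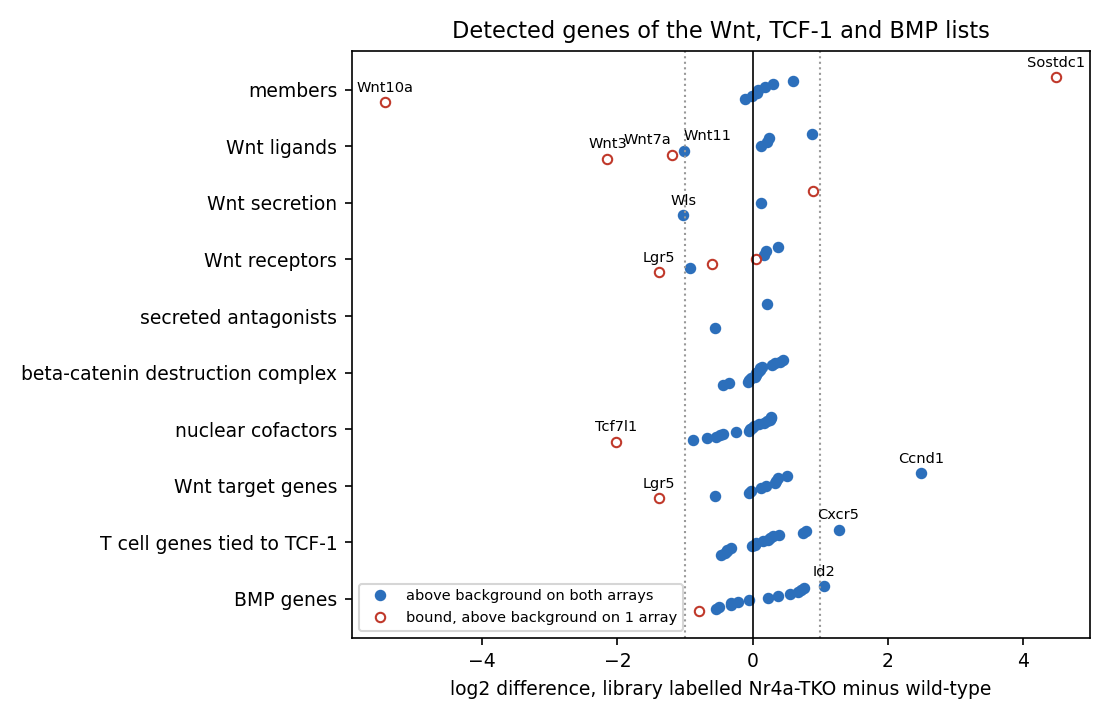
The log2 difference, library labelled Nr4a-TKO minus wild-type, of every detected gene in the member list and the 9 related lists (rows), with dotted lines at 2-fold and names for genes past them. Filled blue points are genes above background on both arrays and open red points are bounds. The members Wnt10a and Sostdc1 are the outermost points at -5.43 and 4.49, and all 16 genes listed for the destruction complex and its regulators lie between the dotted lines.

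Markers of other cells also differed between the libraries, beside the member differences. Of 7 plasmacytoid dendritic cell markers, 5 were at least 2-fold higher in the library labelled Nr4a-TKO, with a median of 1.55. They included Cox6a2 (114-fold), Tcf4 (7.57-fold) and Klk1 (at least 27.8-fold, detected in the library labelled Nr4a-TKO alone). The summed scaled signal of all 7 (signal over the array's 75th percentile) was 98.3 in the library labelled Nr4a-TKO and 80.4 in the wild-type one, or 20.6 and 8.11 without Siglech. The brightest Siglech probe gave 136839 and 147869, and another gave 12556 and 147. Of 9 red cell and platelet markers, 5 were detected and 4 of them were lower (median -1.63, summed signal 5.97 and 20.6), among them Hba-a1 (3.52-fold), Slc4a1 (3.13-fold) and Alas2 (3.09-fold). Of 9 myeloid markers, 3 were higher, Itgax (6.27-fold), Clec9a (5.63-fold) and Lyz2 (2.04-fold). In the same list 4 were lower, among them C1qc (3.03-fold), C1qa (2.92-fold) and Cd14 (2.57-fold). The summed signal of this list was 45.1 and 60.3, or 21.5 and 41.5 without Itgam. Of 9 B cell markers, 7 were detected and Ebf1 was 2.25-fold higher (summed signal 12.8 and 7.36), while neither array detected Pax5 or Blk. The thymocyte gene Rag1 was at least 14.0-fold lower (12.8 and 830), but it was detected in the wild-type library alone, so the filter fixed its direction. In its list, 5 of 7 genes were detected, with summed signals of 7.20 and 8.28, or 3.87 and 2.82 without Cd1d1, and Ccr9 was 2.35-fold higher. In the stromal and epithelial list, 8 of 11 genes were detected, and Cdh1 (by 4.70-fold or more) and Cdh5 (by 8.10-fold or more) were higher (summed signal 1.68 and 1.03). Both were detected in the library labelled Nr4a-TKO alone, which fixed their direction too. Of 8 detected NK and CD8 T cell markers, Klrd1 and Klrk1 were higher (summed signal 3.50 and 2.51), and of 8 follicular helper markers, Il21 and Cxcr5 were (67.8 and 59.7). Klrd1, Klrk1 and Il21 were likewise detected in the library labelled Nr4a-TKO alone. All 6 T cell markers on the array stayed within 2-fold. Of 7 naive T cell markers, 6 were above 0, the same direction as Tcf7, and Dapl1 was 4.39-fold higher (9407 and 2491), with a summed signal of 142 and 121 for the list. On the spike-in scale the median of this list was -0.14. The part of these other cells in the differences of Wnt10a, Sostdc1 and Tcf7 was not tested.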

How the data were processed

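Total RNA of sorted Treg cells was labelled with Cy3 by a low-input amplification kit, per the labels' protocols. The deposited scanner files hold linear intensity values per spot, made with Agilent Feature Extraction 10.7.3.1, per the file headers. The authors' value table, an alternative source, holds linear, uncentred intensity: 99.7% of its probes lay within 1% of the scanner value on both arrays, with column medians of 143.7 and 156.8.

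Outlier spots (173 and 209) were left out, repeated spots averaged, and log2 signals scaled to the 75th percentile. The brightest probe above background on at least 1 array stood for its gene. RefSeq's table (GRCm38.p6) renamed or matched 27184 probes through an accession, 3566 through a symbol and 562 through a synonym, while 8036 kept the design's name. The procedure was tested on simulated data. Python 3.11.15, pandas 2.3.3 and limma 3.58.1 (for quantile, cyclic loess and normexp settings) were used.

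Members and lists were chosen with earlier results of these data known. The text names all members, up to 3 genes per list and direction past 2-fold, and 2 genes on each side of Wnt10a and Sostdc1 in the order of bounds. List genes within 2-fold and chromosomal neighbours were named with their values known. Alternatives covered scale, background correction, value source, dim-probe filter, bounds, probe choice, outlier spots and a 1.5-fold limit.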

Additional observations from a re-analysis of the deposited data

How the results depend on the processing

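With 1 array per group, no result had a test, and no replicate could be left out. No paired analysis was possible because each group had 1 array. Over the settings that gave them a value, Wnt10a ranged from -5.79 to -4.09 and Sostdc1 from 3.53 to 5.60. Both were picked for these differences, and each was above background on 1 array only. Their signs were thus set beforehand, and nothing is read from signs that stayed the same. When a gene had to be above background on both arrays, 0 members were higher and 0 lower, by construction, and 2 other Wnt pathway genes were lower. At a 1.5-fold limit, 2 members (Sostdc1 and Tcf7) and 3 other Wnt genes were higher and 10 other Wnt genes were lower. With no filter on dim probes, 3 other Wnt genes were higher and 13 lower. With measured values in place of bounds, 2 were higher. After normexp and quantile normalization, 2 were lower, where the cause was not tested. The other 38 comparisons of these counts with an alternative stayed within 1.5 times. Signals below background leave Wnt10b with no fold and Wnt10a and Sostdc1 with bounds.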
